A study of Homo sapiens with 12 samples.

Results

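The circRNAs described here are those whose signal was lower in cytokine-treated than in untreated EndoC-βH1 cells at 24 h and again at 48 h. They were chosen by measured values. A probe had to be well above background on all 12 arrays, and at each time the highest of the 3 cytokine arrays had to lie below the lowest of the 3 untreated arrays, with no cutoff on the size of the difference. Of the 13617 circRNA probes on the array, 7594 were detected on all 12 arrays, and 161 of these met the rule, or 2.12% of the always detected probes. Because the cytokine differences at both times chose these probes, they are given below as a description, and no test of them is used as support.

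A circRNA is a closed loop that forms when a downstream splice site of a pre-mRNA is joined back to an upstream one. The loop has no free ends, so RNase R, an exonuclease that digests linear RNA from its end, leaves it largely intact, and circRNAs turn over more slowly than most linear transcripts of the same gene. IL-1β and IFN-γ are inflammatory cytokines that together are widely used to model the islet inflammation of type 1 diabetes, in which β cells lose function and die.

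EndoC-βH1 is an established insulin-producing human β-cell line. There were 4 groups with 3 arrays each, all of total RNA digested with RNase R: untreated cells at 24 h and at 48 h, here Control, and cells kept with IL-1β (50 U/mL) together with IFN-γ (1000 U/mL) over 24 h or over 48 h, here Cyt. For the Cyt samples of 48 h, the labels state an exposure of 24 h beside a time of 48 h, and the time of 48 h, which the study's methods also give, was used. Nothing used here says that the 3 samples of a group were separate cultures, so the spread between them may be technical. None of 15 β-cell, exocrine, alpha-cell and delta-cell markers looked for has a probe among the 70 linear mRNA probes of the array, so cell identity could not be checked against them. The files used here do not pair the circRNA probe IDs with host genes, so probes are named by ID and no sequence is printed.

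All 6 arrays of 24 h and the first and the second Control array of 48 h share one scan day. The third Control array and the 3 Cyt arrays of 48 h were scanned on a later day. The second Cyt array of 24 h had a scan of its own. Per array, 8735 to 10226 circRNA probes were well above background, and the median background-subtracted signal of the circRNA probes was 10.5 to 21.3 intensity units. Both extremes were Cyt arrays, and the arrays of the groups overlapped in both measures.

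The values below are log2 intensities after quantile normalization over the circRNA probes, and a difference is the mean of 3 Cyt arrays minus the mean of 3 Control arrays. The median difference of the 161 probes was -0.65 at 24 h and -0.58 at 48 h, which puts the typical Cyt signal at 63.9% and 67.1% of the Control signal. The size depended on the processing, with medians of -0.32 and -0.30 after a normexp background correction and of -0.73 and -0.91 without normalization. Over all always detected probes the median difference was -0.08 at 24 h and 0.02 at 48 h. The middle 50% of the lowered probes ran from -0.84 to -0.49 at 24 h and from -0.78 to -0.40 at 48 h. Most differences were thus smaller than the 2-fold change that the study's methods ask for. Only 14 of the 161 reached a log2 difference of -1 or lower at 24 h and 16 did at 48 h, and 6 did at both times.

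The lowered probes separated the arrays by treatment as a group, which the rule itself imposes probe by probe. Relative to each probe's own mean over 12 arrays, the median of the 161 probes was 0.31, 0.33 and 0.22 on the 3 Control arrays of 24 h and -0.40, -0.42 and -0.24 on the 3 Cyt arrays of 24 h. At 48 h it was 0.29, 0.30 and 0.33 on the Control arrays and -0.30, -0.22 and -0.21 on the Cyt arrays. The third replicate of 24 h was therefore the nearest to the middle on either side. The third Cyt array was the highest of its group for 82 of the 161 probes, and the third Control array the lowest of its group for 77. At 48 h no array set the limit for more than 68 probes.

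**Figure D1:**
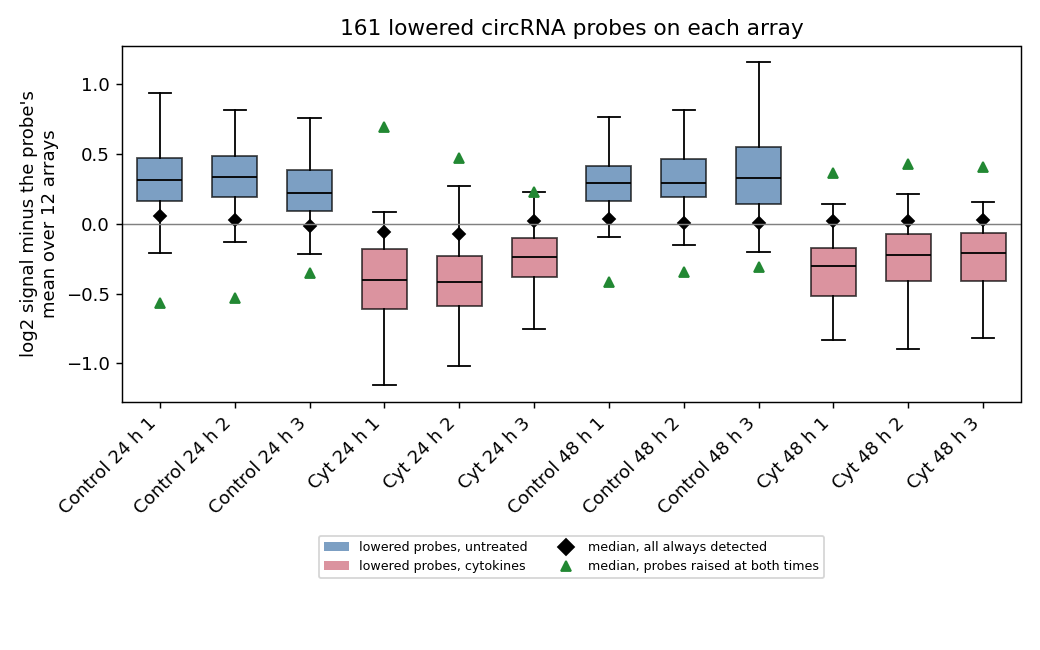
Log2 signal of the 161 lowered probes minus each probe's mean over the 12 arrays (y axis), by array (x axis; Control untreated, Cyt cytokines). Boxes show the median and the quartiles, whiskers reach the farthest value within 1.5 box lengths, diamonds are the median of all 7594 always detected probes and triangles the median of the 211 probes raised at both times. The box medians lie between 0.22 and 0.33 on Control arrays and between -0.42 and -0.21 on Cyt arrays.

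Before normalization, the median over the 161 probes was also lower on every Cyt than on every Control array of the same time. This did not hold probe by probe, since only 71 of the 161 met the rule without normalization. Over all always detected probes the median difference was then -0.17 at 24 h and -0.30 at 48 h, also below 0. The median unnormalized signal of the 161 probes was 71.8, 91.7 and 80.4 units on the Control arrays of 24 h and 70.1, 35.5 and 45.1 units on the Cyt arrays. At 48 h it was 64.8, 79.1 and 119.5 units on Control and 43.3, 49.9 and 42.8 units on Cyt arrays. The groups of 24 h were nearly in contact on this scale, and the part of array brightness in this was not tested. Over the circRNA probes, the first Cyt array of 24 h was the brightest of all 12, with a median of 21.3 units. On the other Cyt arrays of 24 h that median was 10.9 and 12.2 units, and on the Control arrays 12.4, 16.1 and 15.6 units. At 48 h that median was 11.6, 13.8 and 19.8 units on the Control and 12.0, 12.7 and 10.5 units on the Cyt arrays. The third Control array was thus the brightest of the 48 h arrays.

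The size of the separation differed widely between probes. The gap, the distance from the lowest Control to the highest Cyt array at the time where it is smaller, had a median of 0.13. It was under 0.1 for 73 of the 161 probes and over 0.5 for 6. The probe with the largest gap, 0.84, was ASCRP3007176. Its signal was 5.34, 5.07 and 4.82 on Control and 3.87, 3.96 and 3.46 on Cyt arrays at 24 h, and 5.47, 4.67 and 4.98 on Control and 3.83, 3.83 and 3.14 on Cyt arrays at 48 h. Every Cyt array thus lay below 4 and every Control array above 4.6, with differences of -1.31 at 24 h and -1.44 at 48 h. The study's cutoffs are a log2 fold change of 1 or more in either direction and an adjusted p under 0.05, for which limma with Benjamini-Hochberg adjustment was used here. ASCRP3007176 was the 1 member past them at both times. In that fit 3 members were past the cutoffs at 24 h and 4 at 48 h, and 14 of 10211 probes tested, 0.137%, were past them in the lower direction at each time. With the adjusted p alone, 3 members were called at 24 h and 5 at 48 h, against 14 and 15 of the 10211 probes, 0.137% and 0.147%. Beside ASCRP3007176, the members past the cutoffs were ASCRP3007781 (-1.41) and ASCRP3004100 (-1.04) at 24 h and ASCRP3009152 (-1.35), ASCRP3004335 (-1.35) and ASCRP3013236 (-1.07) at 48 h, and the adjusted p alone added ASCRP3004169 (-0.995) at 48 h. ASCRP3009152 had the largest distance between the groups of these at 48 h, 1.19, with 7.49, 7.45 and 7.29 on Control and 6.10, 6.08 and 5.98 on Cyt arrays. These 6 probes were named after their values were seen. The rule used the same contrast, which favours such calls among the members, so nothing is read from these counts. With the signal before background subtraction the differences of ASCRP3007176 were -0.75 and -0.77, while in the deposited log2 values they were -0.66 and -0.65 and with a normexp background correction -0.36 and -0.37. Under these 3 settings it did not reach the fold change of 1, so the call at both times was lost.

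The members with the most negative mean of both differences were not all alike. ASCRP3013153 had the most negative difference of the 161 at 48 h. It read 6.22, 7.85 and 7.93 on Control and 4.52, 5.25 and 5.58 on Cyt arrays at 48 h, and 6.48, 6.17 and 7.72 on Control and 5.67, 4.76 and 5.65 on Cyt arrays at 24 h. Its Control arrays spread over more than 1.5 log2 units at each time, so that the differences of -2.21 at 48 h and -1.43 at 24 h have wide errors, with a Control mean of 7.33 ± 0.96 (SD, n = 3) at 48 h and 6.79 ± 0.82 (SD, n = 3) at 24 h. The 24 h difference was -0.97 without the third Control array of 24 h.

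ASCRP3001197 read 5.79, 5.69 and 6.16 on Control and 4.66, 3.99 and 5.20 on Cyt arrays at 24 h, and 5.77, 6.61 and 6.67 on Control and 4.72, 5.48 and 5.22 on Cyt arrays at 48 h. Its differences, -1.26 and -1.21, were close in size. ASCRP3001707 had a difference of -0.88 at 24 h, where its groups were 0.0092 apart (Control 4.69, 5.42 and 4.41, Cyt 3.17, 4.40 and 4.30), and of -1.55 at 48 h, where they were 1.04 apart. Its difference at 24 h was -0.49 without the first Cyt array. The differences of both probes kept their sign under each of the 7 other ways of processing.

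The most negative difference of all 161 at 24 h, -3.41, belonged to ASCRP3003985 and rests on 1 spot. This probe read 14.07 on the first Control array of 24 h, where the spot was flagged as non-uniform and had an unnormalized signal of 19122 units. On the other Control arrays it read 5.88 to 6.27, or 50.5 to 105 units. Without that array the difference at 24 h was -0.68, near the median of the 161, and its difference at 48 h was -0.61. It was the only one of 1932 member spots flagged as non-uniform, and no member spot was saturated or flagged as a population outlier.

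**Figure D2:**
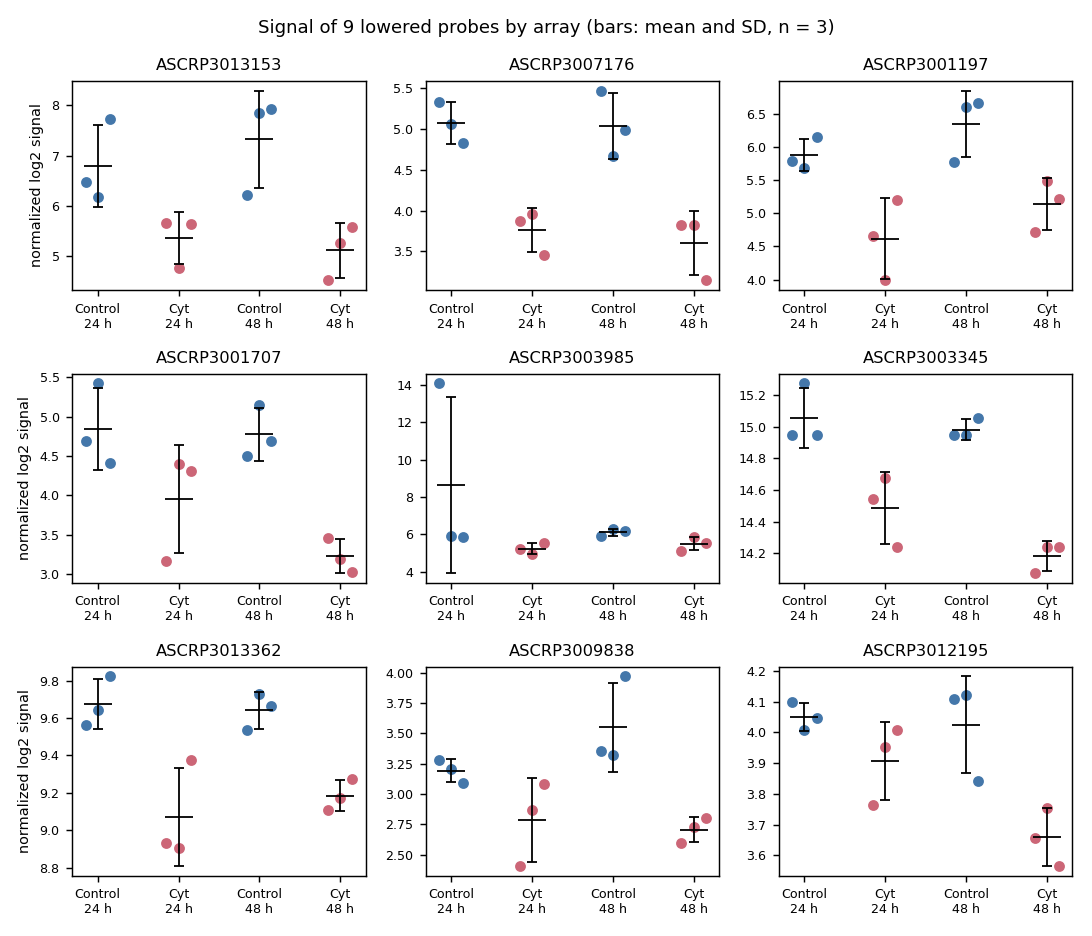
Normalized log2 signal (y axis, scaled to each probe) of 9 lowered probes in the 4 groups (x axis). Points are arrays, horizontal bars the mean and whiskers 1 SD (n = 3); blue is Control and red Cyt. The first Control array of ASCRP3003985 stands at 14.07 against 5.88 to 6.27 on the other Control arrays.

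The 6 probes at -1 or lower at both times, named after their values were seen, were ASCRP3013153, ASCRP3007176, ASCRP3001197, ASCRP3011456, ASCRP3012876 and ASCRP3002653. The last 3 had differences of -1.17, -1.15 and -1.01 at 24 h and -1.18, -1.16 and -1.12 at 48 h. ASCRP3012876 read 6.01, 6.01 and 6.04 on the Control arrays of 48 h, which was a much tighter group than that of ASCRP3013153. All 6 also met the rule under 7 other ways of processing the same arrays.

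All always detected probes ranged in signal from 2.75 to 15.81. For the lowered probes the mean over 12 arrays ran from 3.06 to 9.39, and 1 more, ASCRP3003345, stood at 14.68. The median was 5.93, against 5.29 for all always detected probes and 5.84 for the 211 raised at both times. With the always detected probes divided into brightness quartiles, 23 of the 161 were in the dimmest, 29 and 51 in the middle ones and 58 in the brightest, that is 1.21%, 1.53%, 2.69% and 3.05% of the probes of each. Of the 211 raised at both times, 28, 49, 67 and 67 were in these quartiles, so the skew was not particular to the lowered probes. The typical SD between arrays of a group went down in the same order over all always detected probes, from 0.39 to 0.36, 0.34 and 0.32. The rule asks for groups that do not overlap, which a smaller SD makes easier to meet, and the part of this in the counts was not tested. The differences showed no such order, with quartile medians of -0.72, -0.62, -0.69 and -0.60 at 24 h and -0.60, -0.56, -0.65 and -0.55 at 48 h.

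ASCRP3003345 was by far the brightest member, with a mean of 14.68, brighter than 99.9% of the always detected probes. It read 14.94, 15.27 and 14.94 on Control and 14.54, 14.68 and 14.24 on Cyt arrays at 24 h, and 14.94, 14.94 and 15.06 on Control and 14.07, 14.24 and 14.24 on Cyt arrays at 48 h. The repeated values arise because quantile normalization gives the same value to the same rank on every array. The differences of -0.57 and -0.80 are thus changes of rank among the few brightest probes. With each array scaled to its 75th percentile they were -0.98 and -0.70, so their order depended on the scaling.

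The next brightest were ASCRP3013362 and ASCRP3007024. ASCRP3013362 read 9.56, 9.64 and 9.82 on Control and 8.93, 8.91 and 9.37 on Cyt arrays at 24 h, and 9.53, 9.73 and 9.66 on Control and 9.11, 9.17 and 9.27 on Cyt arrays at 48 h. Its differences were -0.61 and -0.46, and those of ASCRP3007024 were -0.69 and -0.55. In both probes the SD within a group was at most 0.27, so these bright members had smaller differences than the leading ones but tighter groups.

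At the dim end, ASCRP3009838 read 3.28, 3.21 and 3.09 on Control and 2.40, 2.87 and 3.09 on Cyt arrays at 24 h, where the groups were 0.0016 apart. Its differences were -0.41 and -0.84, and the difference at 24 h was 0.0023 after a normexp background correction and 0.011 in the deposited log2 values, so that its direction at 24 h depended on the processing. Its difference at 48 h was -0.15 and -0.32 in these settings, and its difference at 24 h was -0.22 without the first Cyt array. ASCRP3003027, the other of the dimmest pair, had differences of -1.06 and -0.58, with a spread from 1.81 to 3.43 over its Cyt arrays of 24 h, and the difference at 24 h was -0.56 without the first of these.

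The member just inside the rule was ASCRP3012195, with a gap of 0.00062 at 24 h and differences of -0.14 and -0.36. Just outside stood ASCRP3001525, named like the next for its place at the threshold, whose lowest Control and highest Cyt array of 24 h were equal at 8.22, and ASCRP3000576, with a gap of -0.00045 at 24 h. Their differences were -0.78 and -0.70, and -0.68 and -0.74, larger than those of ASCRP3012195. The edge of the set is therefore one of overlap and not of size.

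The share of probes lowered at the other time was set against all always detected probes. At 24 h, 691 always detected probes, 9.1%, had all Cyt arrays below all Control arrays, and 816, 10.7%, did at 48 h. The 161 were 23.3% of the former and 19.7% of the latter. The comparisons of 24 h and 48 h share no array. The 530 probes lowered in this sense at 24 h only had a median difference of 0.0043 at 48 h, with 263 of them below 0. The 655 lowered at 48 h only had a median of -0.11 at 24 h, with 394 below 0. Each of these sets leaves out the probes lowered at the other time, which by itself moves its values there toward 0 or above. Of all always detected probes, 57.0% were below 0 at 24 h and 47.9% at 48 h. By the mirrored rule 8.43% of the always detected probes were raised at 24 h and 11.1% at 48 h, and 211, 2.78%, were raised at both times, with median differences of 0.96 and 0.72, farther from 0 than those of the lowered probes.

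Among the 161, the difference was the more negative at 24 h for 94 probes and at 48 h for 67. The change from 24 h to 48 h had a median of 0.08 and was within 0.25 for 97 probes. The sizes at the 2 times followed each other weakly. Pearson's r over the 161 probes was 0.26 and Spearman's rho 0.27, and r was 0.35 without ASCRP3003985, against 0.28 over all always detected probes. These describe probes measured on the same arrays, which are not independent, and the rule limits both differences to values below 0. The largest shift toward 48 h was that of ASCRP3004335, from -0.30 to -1.35, and without ASCRP3003985 the largest shift toward 24 h was that of ASCRP3007781, from -1.41 to -0.54. Both were named after their values were seen. ASCRP3004335 read 9.21, 9.23 and 8.67 on Control and 7.72, 7.64 and 7.71 on Cyt arrays at 48 h but 8.71, 8.94 and 8.73 on Control and 8.28, 8.53 and 8.67 on Cyt arrays at 24 h.

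**Figure D3:**
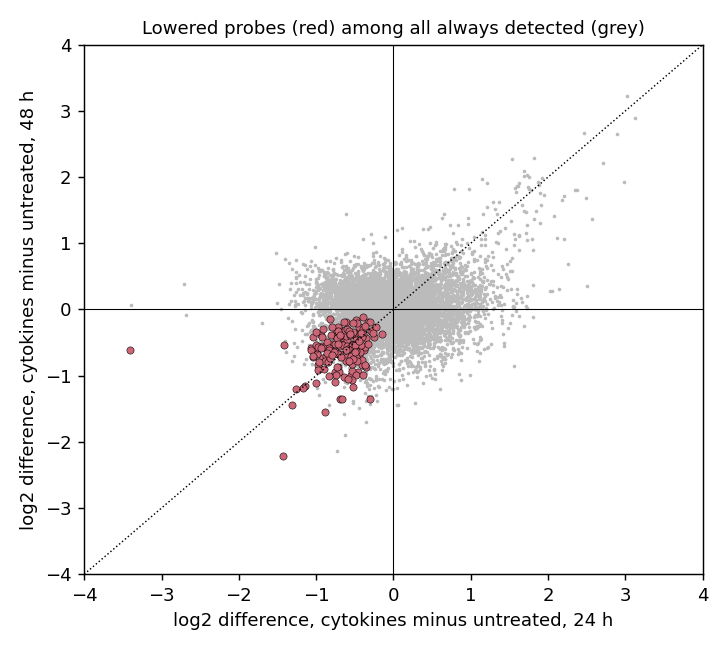
Log2 difference (Cyt minus Control) at 24 h (x axis) against 48 h (y axis) for the 7594 always detected probes in grey and the 161 lowered at both times in red. The dotted line marks equal differences, and 3 grey probes lie outside the axes. The red point at -3.41 on the x axis is ASCRP3003985.

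Arrays whose Cyt and Control values were not compared in the choice were also read. The rule was applied with one replicate number of all 4 groups left out, so that 2 arrays were compared with 2 at each time, and the differences on the left-out arrays were then taken. The filter for detection and the normalization were those of all 12 arrays, so the left-out arrays did enter these steps. Without replicate 1, 588 probes were chosen, without replicate 2 there were 299, and without replicate 3 there were 644. Each set holds the 161 by construction, and the rule over all 12 arrays puts these 161 below 0 on every left-out pair. The values below therefore describe the chosen sets and are no separate support for the 161. On the left-out arrays the chosen probes had a median difference of -0.29 for replicate 1, -0.62 for replicate 2 and -0.15 for replicate 3 at 24 h, where all always detected probes had -0.06, -0.12 and 0.0071. At 48 h the chosen probes had -0.41, -0.37 and -0.13, against 0.0030, 0.011 and 0.02 for all always detected probes. All 6 medians lay below the background median, but the 161 in each set pull them down. For replicate 2 the 161 were 53.8% of the chosen probes, so its medians were below 0 by construction. All medians but that of replicate 2 at 24 h were nearer to 0 than on the arrays that chose the probes. There they were -0.53, -0.56 and -0.65 at 24 h and -0.49, -0.55 and -0.48 at 48 h.

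The left-out arrays were below 0 at both times for 58.2%, 76.3% and 46.6% of the chosen probes, against 26.9%, 29.2% and 31.3% of all always detected probes. These shares are 342, 228 and 300 probes, and each count includes the 161, whose sign was fixed. The 161 made up 27.4%, 53.8% and 25% of the chosen sets, which by itself raises the shares. Shares without the 161 were not taken, so nothing is read from the contrast with all always detected probes. Replicate 3 showed the smallest difference at both times. For that replicate, 65.1% of the chosen probes were below 0 at 24 h and 60.9% at 48 h, against 49.2% and 48.1% of all always detected probes. The shares of the chosen probes again include the 161. These values are a description over probes, and no test was made.

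**Figure D4:**
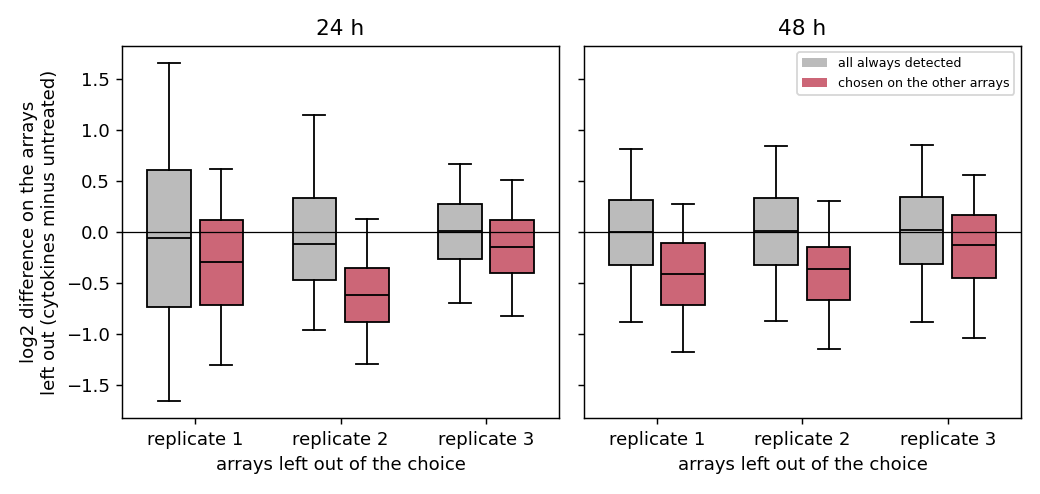
Log2 difference (Cyt minus Control, 1 array against 1; y axis) on the arrays left out of the choice (x axis), at 24 h on the left and 48 h on the right. Boxes show the median and quartiles and whiskers the 5th and 95th percentile over all 7594 always detected probes (grey) and over the probes chosen on the other arrays (red). The red medians lie between -0.62 and -0.13, each below its grey neighbour.

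The change from 24 h to 48 h, averaged over Control and Cyt arrays, was a contrast that the rule did not use. It was tested in limma. The rule does favour a small SD within groups, which enters this test. By brightness quartile the median SD was 0.26, 0.21, 0.22 and 0.19 in the 161. In all always detected probes it was 0.39, 0.36, 0.34 and 0.32. In this fit 0 of the 161 probes and 0 of the 10211 tested, 0%, passed the cutoffs, and 0 also passed an adjusted p of 0.05 alone. At an unadjusted p under 0.05 there were 6 of the 161, 3.73%, and 548 of 10211, 5.37%. The smallest adjusted p among the 161 was 0.897 in limma, which does not show that their levels were the same at both times. Scan day and time overlap in this comparison, since the 4 arrays of the later day were all of 48 h. With the scan day as a block the counts past the cutoffs were again 0.

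The average change was within 0.5 for 160 of the 161 probes, the exception being ASCRP3003985, and its median was 0.06, against 0.03 for all always detected probes. Apart from the average, the median change was 0.02 in Control and 0.11 in Cyt cells for the 161 probes, and 0.02 and 0.07 for all always detected probes. The members with the highest average change were ASCRP3001197 with 0.50 (standard error 0.25, adjusted p = 0.897 in limma), ASCRP3007754 with 0.41 and ASCRP3013270 with 0.38. ASCRP3001197 was higher at 48 h by 0.47 in Control and by 0.52 in Cyt cells. The lowest after ASCRP3003985 were ASCRP3008177 with -0.41 and ASCRP3001707 with -0.40. In ASCRP3008177 the third Cyt array of 48 h stood apart at 2.93, against 3.97 and 3.93 on the others, and without it the average change was -0.24. The average change of ASCRP3001707 was -0.25 without the second Control array of 24 h, and that of ASCRP3003985 was 0.25 without the first.

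At 48 h the scan day was not balanced between the groups. Within the later day, with 1 Control array against 3 Cyt arrays, the median difference of the 161 probes was -0.60, against 0.017 for all always detected probes. The rule puts every Cyt below every Control array of 48 h, so the sign within the day was fixed by the choice of probes. Local background was not the same on the scan days either. At the member spots its mean was 15.2 to 15.6 units on the Control arrays of 24 h and 14.6 to 15.5 on the Cyt arrays of 24 h, and 15.6, 15.6 and 13.8 on Control against 13.7 to 14.3 on Cyt arrays of 48 h. The part of these differences in the result was not tested. The linear mRNA probes read RNA that RNase R should remove. Their log2 median, here quantile normalized over all spots that are not controls, was 0.12 to 0.56 on Control and 0.22 to 0.49 on Cyt arrays. These ranges overlapped, but they lie below the dimmest always detected circRNA probe, at 2.75. So near the floor, and after that normalization, the overlap does not show that the digestion was alike.

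The lowered probes were spread over the array. The 4 corners of the spot grid, divided at its middle row and column, held 38, 38, 42 and 43 of them, 2.01% to 2.24% of the always detected probes there.

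Other processing of the same arrays moved both the membership and the size of the differences. Under scaling to the 75th percentile, cyclic loess, quantile normalization over all spots that are not controls, the signal before background subtraction, the normexp correction and the deposited log2 values, 139 to 178 probes met the rule, of which 119 to 157 were among the 161. In all 6 of these settings 100 of the 161, 62.1%, met it, and ASCRP3010407, with a gap of 0.0030 at 48 h, met it in none. The 100 had median differences of -0.72 and -0.64 and a median signal of 6.15. With no normalization 182 probes met the rule, but only 71 of them were among the 161, which is 44.1% of the 161 and 39% of the 182. The mean difference was below 0 at both times for all 161 probes in 5 of the 7 settings, and for 159 with the normexp correction and with the deposited log2 values. The exceptions were ASCRP3009838 at 24 h and ASCRP3008015 at 48 h, where the latter had a difference of 0.0078 with normexp and of 0.0018 in the deposited values. ASCRP3010407 and ASCRP3008015 were named after their values were seen.

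**Figure D5:**
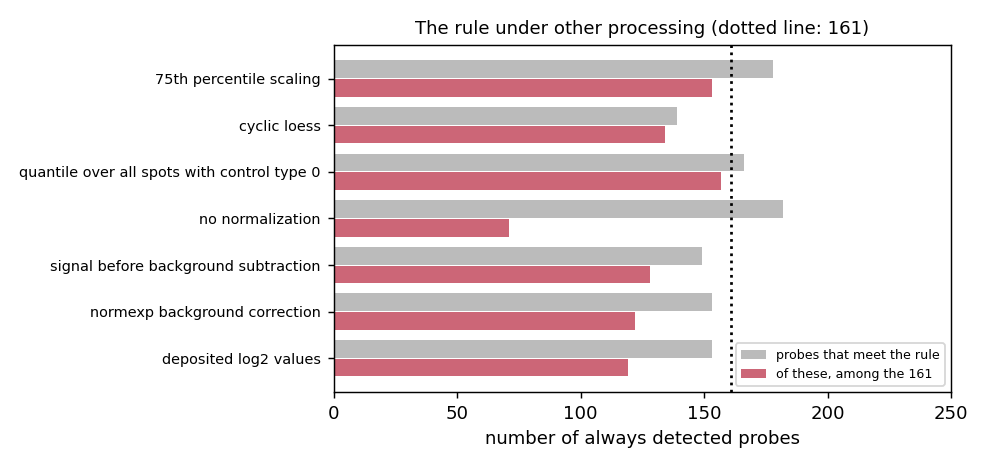
Number of always detected probes (x axis) that met the rule under 7 other ways of processing (y axis) in grey, and how many of them were among the 161 in red. The dotted line marks 161. The red bars run from 71 without normalization to 157 with quantile normalization over all spots that are not controls.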

How the data were processed

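Total RNA was digested with RNase R, labelled with Cy3 and hybridized to the Arraystar Human circRNA Array V2. The authors deposited Agilent Feature Extraction (version 11.0.1.1) output with each spot's fluorescence intensity (median signal, local background and background-subtracted signal) and flags coded 0 or 1, and a table of log2 values that they had quantile normalized; whether background was subtracted for that table is not given in the sources used here. Here, the log2 background-subtracted signal of the 13617 circRNA probes, 1 spot each, was quantile normalized in R 4.3.3. The time comparison was fitted with limma 3.58.1 to 4 group means over the 10211 probes detected on at least 3 of 12 arrays, with the study's cutoffs, and the fit was tested on simulated data. Precision is limited by 3 arrays per group. The deviations of same-numbered arrays of different groups correlated with either sign (18 pairs, r from -0.34 to 0.33, 6 above 0.1). The arrays were therefore not treated as pairs, although these values do not show that they were unpaired. The lowered probes, the lists and the tests were chosen with earlier results of these data known. Named probes were the 5 with the most negative mean difference, the 3 brightest, the 2 dimmest, those at the edge of the rule, that past the cutoffs at both times, and the 3 highest and 3 lowest by average change with time; others are marked as named after their values were seen. Group medians in place of means were added after the data had been seen. Figures were drawn with matplotlib 3.10.9.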

Additional observations from a re-analysis of the deposited data

How the results depend on the processing

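The median difference of the 161 probes at 24 h and 48 h was -0.73 and -0.91 without normalization, -0.48 and -0.44 with the signal before background subtraction, -0.32 and -0.30 with the normexp correction, whose offset of 50 pulls dim values together, and -0.46 and -0.43 with the deposited log2 values. Leaving out any array gave -0.70 to -0.60 at 24 h and -0.60 to -0.54 at 48 h, and group medians gave -0.59 and -0.58. Without normalization the median of all always detected probes itself moved to -0.17 and -0.30, and under 75th percentile scaling to -0.11 and 0.03. The median on left-out arrays at 48 h, averaged over the replicates, was -0.30, and it was -0.49 without normalization and -0.13 with normexp. ASCRP3009838 changed sign at 24 h, to 0.0023 with normexp and 0.011 in the deposited values. The number of probes that met the rule was 179 to 268 without a single array, highest without the first (268) and the third (248) Cyt array of 24 h, and 299 to 644 without a replicate number; fewer arrays make the rule easier to meet. It was 202 with detection on at least 3 arrays, 213 with no detection filter and 160 without flagged spots. For the change with time, the replicate block gave 0 probes, as did leaving out any array, and array weights gave 5, of which 0 were among the 161; the cause was not tested.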

Other observations

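Of the 7594 always detected probes, 53 had all Cyt arrays below all Control arrays at 24 h and above them at 48 h. The reverse order was seen in 21, while the 161 below and the 211 above at both times were 2.12% and 2.78%. At single times, 9.1% were below at 24 h and 10.7% at 48 h, and 8.43% and 11.1% were above. The counts of 53 and 21 were not tested, and nothing is read from them.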
